A study of Mus musculus with 9 samples.

Results

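The genes described here code for the ligands and receptors of 4 guidance systems, the semaphorins with their plexin and neuropilin receptors, the ephrins with the Eph receptors, the Slits with the Robo receptors, and netrin-1 with Unc5 receptors. They were chosen by family name, as a list of 60 gene symbols, with earlier results of these data known. The list does not hold every gene of these families. A probe set paired with that symbol and no other was found for 59 of them, among 18193 genes represented in that way on the array, and Ephb2 was not analysed here. The 59 genes held 31 ligands (19 semaphorins, 8 ephrins, 3 Slits and Ntn1) and 28 receptors (9 plexins, 2 neuropilins, 12 Eph receptors, 3 Robo and 2 Unc5 genes).

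RNA of mouse E14 embryonic stem cells (ESCs) was compared with RNA of embryoid bodies (EBs), the aggregates in which such cells differentiate, both from E14 cells that the labels give as untreated. There were 4 ESC arrays, which carry the labels 2, 6, 8 and 10, and 5 EB arrays, with the labels 1, 3, 5, 7 and 9. The study's methods call the ESC arrays biological replicates. Neither the age of the EBs nor whether they came from separate cultures is given in the sources used here, so p-values measure the spread between these samples, which may be technical, and all samples come from 1 cell line. Each value below is a level, the log2 of a GCRMA intensity of an Affymetrix mouse expression array, and each difference is EB minus ESC in log2 units. A gene is represented by its probe set with the highest mean level and is called where limma gave an adjusted p under 0.05 over all 45037 probe sets. A level also depends on the probes, so levels of different genes are not compared. In RNA of whole aggregates, fewer cells of a type and less RNA per cell cannot be told apart. Values of single arrays are given in the order of the labels above.

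Guidance molecules steer growing axons, migrating cells and sprouting vessels by attracting or repelling the cell that carries the receptor. Class 3 semaphorins are secreted and mostly act through a neuropilin that binds the ligand and a plexin that carries the signal, whereas the later classes are mostly bound to the membrane and bind plexins directly. Ephrins are held in the membrane of the neighbouring cell, type A by a lipid anchor and type B by a transmembrane stretch, and signal into both cells at sites of contact. Slits and netrins are secreted proteins read by Robo receptors and by Dcc, neogenin and Unc5 receptors. Outside the nervous system the same molecules are known for roles in heart, vessel and somite development.

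The EB label was checked against marker lists of 5 genes each. Of the pluripotency genes, Pou5f1, Nanog, Zfp42 and Tdgf1 were lower in EBs, and Esrrb was not called (difference -0.14). Of the cardiac muscle genes, 4 of 5 were higher, with Myl7 at a level of 2.42 ± 0.07 (SD, n = 4) in ESCs and 11.46 ± 0.11 (SD, n = 5) in EBs, and Nkx2-5 was not called. Mesenchyme genes rose in 4 of 5 cases, with Pdgfra not called. Endothelial genes rose in 3 of 5, with Tek not called and Pecam1 between 2.54 and 2.62 on every array. Of the endothelial rises, those of Cdh5 (2.59 to 3.93) and Tie1 (2.25 to 2.87) lay near the bottom of the scale. Kdr rose from 4.69 to 6.70. Of the neural progenitor genes, Zic1 and Sox1 rose, Pax6 fell, and Nes and Pax3 were not called. No neuronal gene was called higher and Stmn2 fell by 2.65, while Map2 stayed between 3.56 and 3.70. Tubb3, Dcx and Elavl3 were not called either. Tubb3 nevertheless read 8.01 and 7.67 on EB arrays 7 and 9, against 6.48 to 6.71 on the other EB arrays and 6.55 to 6.87 in ESCs. Of the extraembryonic endoderm genes, Foxa2 and Afp rose, and Ttr, Sox17 and Sox7 were not called. The mean level over the mesenchyme list was 5.54, 5.40, 6.77 and 6.58 on the ESC arrays and lay between 9.07 and 9.62 in EBs. The ESC arrays 8 and 10 thus read higher than 2 and 6 on this list, and values within each set of array labels are given below for the guidance genes with a wide gap of the same kind. The part of other cell types in the results below was not tested.

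Of the 59 guidance genes, 27 (45.8%) were called higher in EBs, against 15.7% of all 18193 genes, and 5 (8.47%) were called lower, against 14.7% of all genes. The remaining 27 were not called. The median difference of the 59 genes was 0.42, and that of all genes was -0.04. Among the calls, 19 rises and 3 falls reached a fold of 2. The share of all genes called at that fold was not computed, so these counts have no background to be read against. Ligands rose in 15 of 31 cases and fell in 3, with a median difference of 0.55, while receptors rose in 12 of 28 and fell in 2, with a median of 0.23. That order of the medians turned when all probe sets of a gene were averaged, to 0.30 for ligands and 0.41 for receptors. By family, 7 of 8 ephrins rose, as did 6 of 9 listed genes of the Slit, Robo, Unc5 and netrin group and both neuropilins. Sema3g, Epha10, Robo3, Unc5a, Unc5d, Ntn3, Ntn4 and Ntn5 belong to these families but were not on the list, and none was called. The shares given here are those of the listed genes, and would be lower for the families with these genes added. The plexins had 3 rises in 9 genes (33.3%). The Eph receptors had 4 rises (33.3%) and 2 falls (16.7%) in 12, and the semaphorins 5 rises (26.3%) and 3 falls (15.8%) in 19. Those shares of falls were near the 14.7% of all genes.

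**Figure D1:**
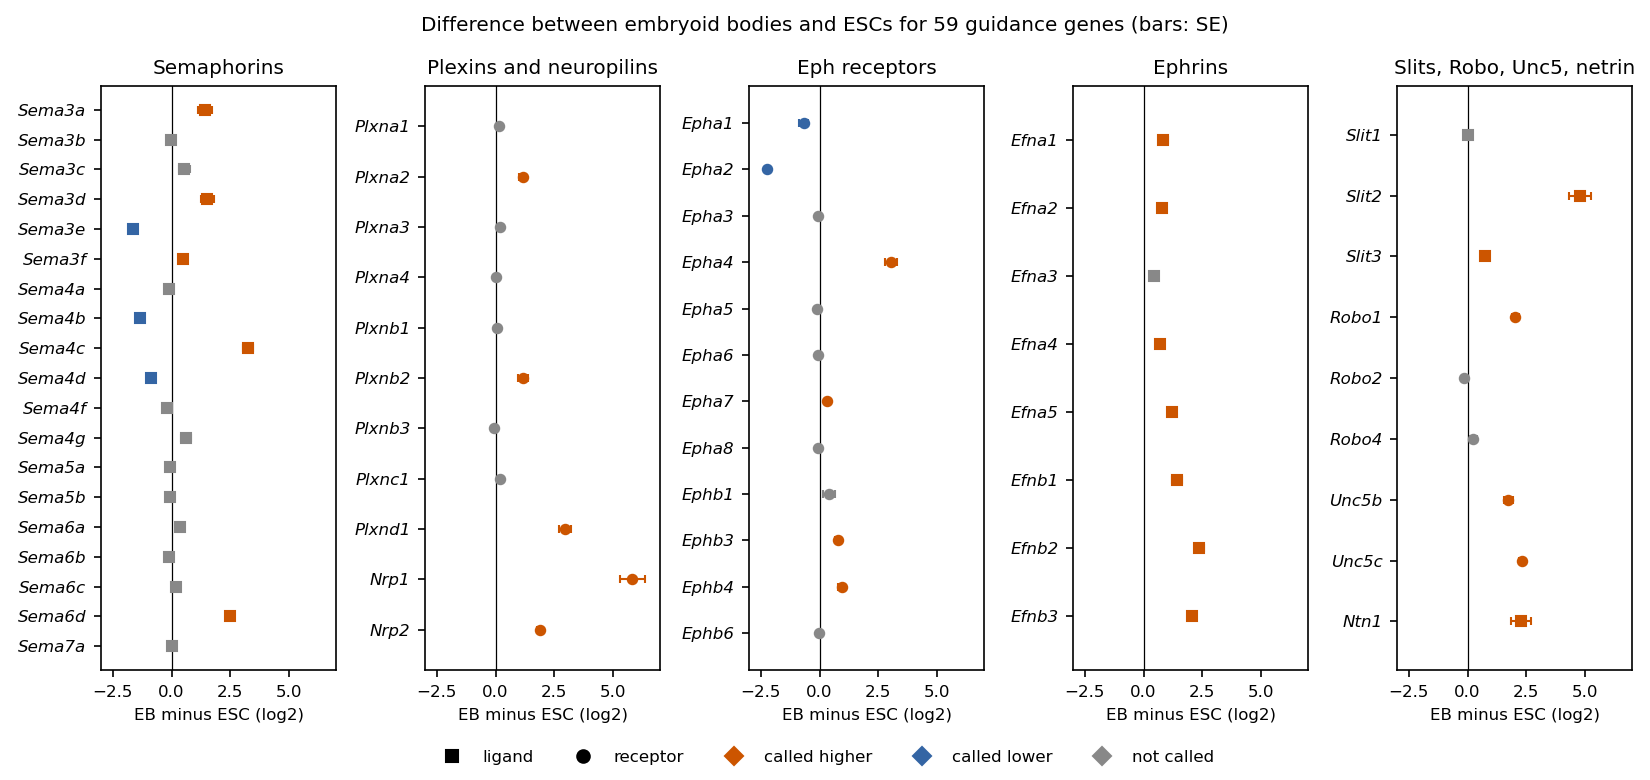
Difference between EB and ESC (log2 GCRMA level, horizontal axis) of each of the 59 guidance genes by family, with bars of 1 SE from limma and colour for genes called higher, called lower or not called, squares for ligands and circles for receptors. The rises run up to 5.82 for Nrp1 and 4.80 for Slit2, and the 5 falls are Epha2, Sema3e, Sema4b, Sema4d and Epha1.

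The promoters of the genes with the 2 largest rises, Nrp1 and Slit2, and the largest fall, Epha2, are shown as the 250 bases before an annotated start in RefSeq. Capitals mark the GC box (GGGCGG or CCGCCC), the TATA motif (TATAAA or TTTATA), the octamer (ATGCAAAT or ATTTGCAT) and the CCAAT box (CCAAT or ATTGG), searched on both strands.
Nrp1, GRCm38.p6 chr8:128358823-128359072, plus strand: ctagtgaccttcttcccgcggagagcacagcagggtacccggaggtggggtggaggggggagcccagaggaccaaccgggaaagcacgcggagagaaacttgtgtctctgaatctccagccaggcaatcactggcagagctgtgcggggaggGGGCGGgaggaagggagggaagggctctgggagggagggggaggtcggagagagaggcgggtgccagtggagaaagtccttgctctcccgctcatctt
Slit2, GRCm38.p6 chr5:47982905-47983154, plus strand: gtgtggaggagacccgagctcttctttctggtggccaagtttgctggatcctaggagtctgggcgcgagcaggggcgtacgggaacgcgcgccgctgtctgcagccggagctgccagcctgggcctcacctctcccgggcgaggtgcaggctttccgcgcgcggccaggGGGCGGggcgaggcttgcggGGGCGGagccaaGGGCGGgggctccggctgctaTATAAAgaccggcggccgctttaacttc
Epha2, GRCm38.p6 chr4:141300971-141301220, plus strand: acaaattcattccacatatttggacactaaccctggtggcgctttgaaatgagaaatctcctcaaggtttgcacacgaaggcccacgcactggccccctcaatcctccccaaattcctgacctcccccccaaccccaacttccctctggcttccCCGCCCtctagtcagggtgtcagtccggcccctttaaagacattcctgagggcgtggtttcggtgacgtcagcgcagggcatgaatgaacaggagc
The windows of Nrp1 and Epha2 held 1 GC box each, and that of Slit2 held 3 GC boxes and 1 TATA motif beside its start. CpG pairs numbered 11, 9 and 25 in the windows of Nrp1, Epha2 and Slit2. A promoter was given for 51 of the 59 genes, in 67 windows, since 12 genes had several starts. The GC box was in 70.1% of these windows and in 32.7% of the 32851 windows of all genes. TATA was in 2.99% against 12.4%, CCAAT in 26.9% against 33.8%, and the octamer in 0 of 67 against 1.6%. The windows of guidance genes held a median of 15 CpG pairs, and all windows a median of 6. The GC box was in 75.9% of 29 windows of genes called higher and in 75% of 8 windows of genes called lower. The median number of CpG pairs was 16 in the former and 8 in the latter. TATA was in 6.9% and 0%, and CCAAT in 27.6% and 25%. No test compared these sets of windows. These matches describe the letters of the windows and were not tested as binding sites.

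The neuropilins, the receptors that bind class 3 semaphorins and also vascular endothelial growth factor, were both higher in EBs. Nrp1 read 4.34, 4.87, 7.09 and 6.83 in ESCs and 11.64, 11.59, 11.65, 11.51 and 11.63 in EBs. All EB arrays lay above all ESC arrays and close to each other, while the ESC arrays fell into a lower and an upper pair. The difference was 5.82 ± 0.54 (SE), a 56.6-fold rise and the largest among the guidance genes (adjusted p = 4.8e-05). Within array labels 1 to 6 it was 7.02 and within 7 to 10 it was 4.61. The other probe sets of Nrp1 varied in this. The first read 2.36, 2.75, 4.34 and 3.25 in ESCs, again higher on arrays 8 and 10, with a difference of 6.35. The second read 3.89, 4.05, 4.03 and 3.75, without the split, with a difference of 4.81, and the third differed by 0.02 and was not called. Nrp2 read 6.92, 6.58, 6.46 and 6.49 in ESCs and 8.59, 8.52, 8.60, 8.46 and 8.32 in EBs. It rose by 1.88 ± 0.10 (SE), or 3.68-fold, with no overlap between groups (adjusted p = 2.4e-06). Another probe set of Nrp2 rose by 2.17 (adjusted p = 0.00156). Its ESC values, 3.06, 3.27, 4.68 and 4.55, were higher on arrays 8 and 10, unlike those of the representing probe set.

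Of the 6 class 3 semaphorins, 3 (50%) were called higher and 1 (16.7%) lower, against 15.7% and 14.7% of all genes. Sema3e, a vascular repellent that binds plexin-D1 without a neuropilin, read 8.71, 8.86, 8.29 and 8.37 in ESCs and 6.77, 7.05, 6.85, 6.83 and 7.11 in EBs. Every EB array was below every ESC array, and the fall was 1.64 on the log2 scale, or 3.11-fold (adjusted p = 1.9e-05). The other 3 probe sets of Sema3e were also lower, by differences of -0.27, -0.77 and -0.97, each called. Its receptor Plxnd1 moved the other way. Plxnd1 read 3.32, 4.49, 3.31 and 4.13 in ESCs and 6.84, 6.83, 6.84, 6.67 and 6.69 in EBs, a rise of 2.96 ± 0.24 (SE) between groups that did not overlap (adjusted p = 1.9e-05). Its mean in ESCs, 3.81, was near the bottom of the scale, where the size of a fold is uncertain. Sema3a, the classical collapse factor of growth cones that acts through Nrp1, rose by 1.42 ± 0.30 (SE) from a level of 3.87 ± 0.46 (SD, n = 4) to 5.28 ± 0.52 (SD, n = 5). Sema3d rose by 1.53 ± 0.29 (SE) from 3.86 to 5.39, and by 1.61 within each set of labels. Both were likewise near the bottom of the scale in ESCs, and Sema3a was not called within labels 1 to 6 (0.98, adjusted p = 0.0983).

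Sema3f, which acts through Nrp2, rose by 0.48 ± 0.09 (SE), from 9.47 to 9.95 (adjusted p = 0.00291). The name ending of its representing probe set marks probes that may match related transcripts. The plain probe set of Sema3f was under a level of 3 in both groups, near the bottom of the scale, and differed by -0.01 (adjusted p = 0.58). A further probe set rose by 0.42, from 4.87 to 5.29, and was not called (adjusted p = 0.0824). The call thus depends on the choice of probe set. Within labels 7 to 10 the difference on the representing probe set was 0.26 (adjusted p = 0.0565). Sema3c, a guidance cue of the cardiac outflow tract, was not called. It read 7.29, 7.06, 7.03 and 6.72 in ESCs and 7.24, 7.24, 7.24, 8.10 and 8.08 in EBs. The EB arrays 7 and 9 were the highest and the other EB arrays lay within the ESC range, with a difference of 0.06 within labels 1 to 6 and 1.22 within 7 to 10 (adjusted p = 0.00639 in the latter). Sema3b stayed between 4.16 and 4.26 on all arrays.

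The semaphorins of classes 4 to 7 had 2 rises and 2 falls in 13 genes. That is 15.4% each way, near the 15.7% and 14.7% of all genes. Sema4c, a ligand of plexin-B2, read 5.50, 5.32, 5.31 and 4.36 in ESCs and 8.33, 8.37, 8.36, 8.46 and 8.29 in EBs. The EB values were close together and far above the ESC values, of which array 10 was the lowest, and the rise was 3.24 ± 0.21 (SE), or 9.44-fold (adjusted p = 5.0e-06). Its receptor Plxnb2 rose too, by 1.18 ± 0.21 (SE), from 7.07 ± 0.53 (SD, n = 4) to 8.25 ± 0.04 (SD, n = 5). Sema4b and Sema4d went down. Sema4b read 8.42, 8.37, 8.18 and 7.78 in ESCs and 6.96, 7.23, 7.04, 6.51 and 6.53 in EBs, a 2.53-fold fall without overlap (adjusted p = 6.6e-04). Sema4d, the ligand of plexin-B1, read 8.59, 8.60, 8.25 and 7.85 in ESCs and 7.40, 7.61, 7.38, 7.38 and 7.53 in EBs, with the lowest ESC array just above the highest EB array. That fall was 1.82-fold (adjusted p = 0.00249), and within labels 7 to 10 the difference was -0.60 (adjusted p = 0.0967). Sema6d, a ligand of plexin-A1 with known roles in the developing heart, read 4.41, 4.98, 4.97 and 5.39 in ESCs and 7.24, 7.43, 7.14, 7.58 and 7.73 in EBs. It rose 5.60-fold, with no overlap (adjusted p = 1.6e-05).

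Plxnb1 and Plxna1, receptors of Sema4d and Sema6d, were not called on their representing probe sets. Plxnb1 read 8.03, 8.03, 7.95 and 8.03 in ESCs and 8.01, 8.18, 8.13, 8.03 and 8.04 in EBs, with overlapping groups and a difference of 0.07 (95% interval -0.05 to 0.19). Plxna1 read 8.01, 7.93, 7.99 and 8.06 in ESCs and 8.11, 8.13, 8.06, 8.29 and 8.08 in EBs, a difference of 0.13 (95% interval 0.00 to 0.27) that was not called. Plxna2 was the third plexin that rose, by 1.15 ± 0.16 (SE) from 5.09 to 6.24. Its ESC values, 5.06 to 5.12, were nearly equal, as GCRMA can leave probe sets of low signal, so size and SE are uncertain. The other plexins, Plxna3, Plxna4, Plxnb3 and Plxnc1, differed by -0.07 to 0.21. Among the semaphorins not called, Sema6c had the highest mean and read 9.05, 9.03, 9.17 and 9.39 in ESCs and 9.35, 9.35, 9.52, 9.23 and 9.17 in EBs, with groups that overlapped. Its difference was 0.37 within labels 1 to 6 (adjusted p = 0.0241) and -0.08 within 7 to 10 (adjusted p = 0.604), and with array weights it was called at 0.28 (adjusted p = 0.0313). Sema4g was close to the threshold, with a difference of 0.62 (adjusted p = 0.0591), and was called without ESC array 8 (adjusted p = 0.0496) or 10 (adjusted p = 0.0327). It was also called with the label sets as a covariate (0.65, adjusted p = 0.0279), within labels 1 to 6 (0.94, adjusted p = 0.0424), with centring or array weights, with the mean over probe sets and with a filter on low levels. Sema4a, Sema4f, Sema5a, Sema5b, Sema6a, Sema6b and Sema7a differed by between -0.19 and 0.35. These values do not show that any of the genes was at the same level in both groups.

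**Figure D2:**
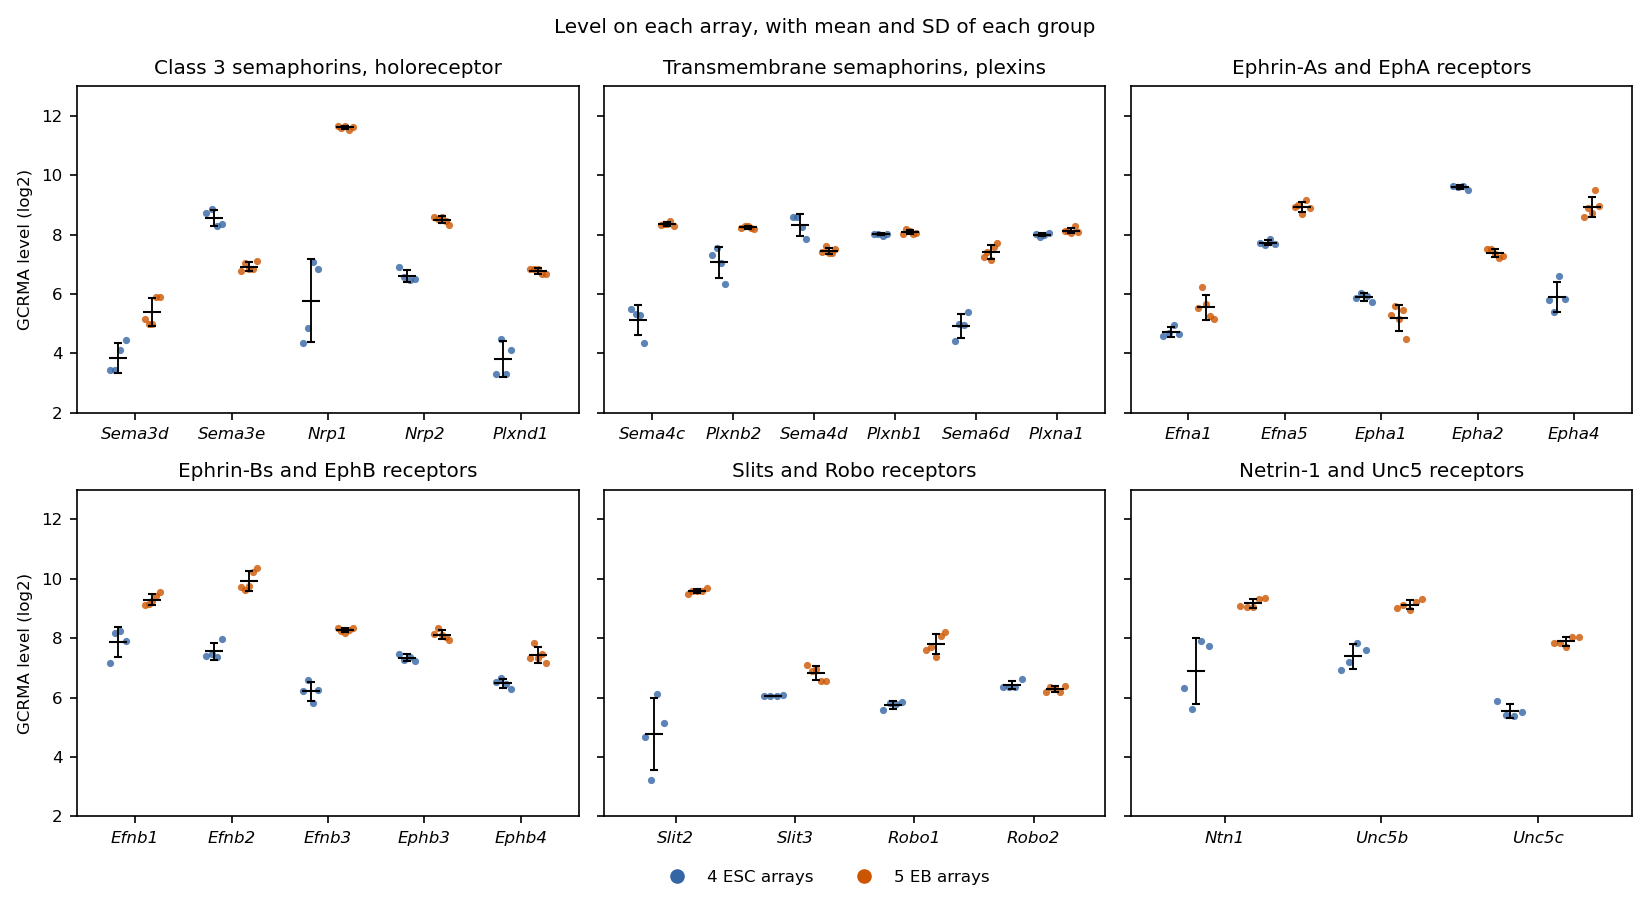
GCRMA level (log2, vertical axis) on each of the 4 ESC and 5 EB arrays for ligands and receptors grouped by system, with the mean and SD of each group. EB points of Nrp1, Slit2 and Sema4c lie close together and above all ESC points, and those of Epha2 lie below all ESC points, while levels of different genes are not comparable.

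Of the 8 ephrins, 7 (87.5%) were called higher and none lower, against 15.7% and 14.7% of all genes. Their median difference was 1.02, and that of all genes was -0.04. All ephrins of type B rose. Efnb2, the arterial marker that binds Ephb4, read 7.39, 7.48, 7.38 and 7.96 in ESCs and 9.71, 9.62, 9.75, 10.22 and 10.35 in EBs. It rose by 2.38 ± 0.19 (SE), or 5.19-fold, with no overlap (adjusted p = 1.7e-05). Efnb3, a midline repellent of the spinal cord, read 6.22, 6.58, 5.81 and 6.24 in ESCs and 8.35, 8.25, 8.17, 8.26 and 8.33 in EBs, a 4.16-fold rise without overlap (adjusted p = 5.3e-06). Efnb1 rose by 1.43 ± 0.21 (SE) from 7.87 to 9.30. Of type A, Efna5, the graded retinotectal cue, rose by 1.20 ± 0.09 (SE), and Efna1, Efna2 and Efna4 rose by 0.84, 0.77 and 0.72. Within labels 7 to 10, Efna1 differed by 0.41 (adjusted p = 0.135) and Efna2 by 1.01 (adjusted p = 0.146). Efna3 read 7.39, 7.54, 7.61 and 7.01 in ESCs and 7.61, 8.02, 8.09, 7.57 and 7.78 in EBs. Its groups overlapped and its difference of 0.43 was not called (adjusted p = 0.0774).

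Among the Eph receptors, the main rise was in Epha4 and the main fall in Epha2. Epha4, which binds ephrins of both types and is known from hindbrain segments and somite borders, read 5.81, 5.38, 6.60 and 5.83 in ESCs and 8.59, 8.91, 8.72, 9.49 and 8.97 in EBs. The groups were far apart, with a rise of 3.03 ± 0.25 (SE), or 8.18-fold (adjusted p = 2.6e-05). Of its other probe sets, 2 were called at smaller rises of 1.23 and 0.50, and the mean over all of its probe sets rose by 0.94. Epha2, a receptor of ephrin-A1, read 9.63, 9.60, 9.65 and 9.49 in ESCs and 7.52, 7.50, 7.36, 7.21 and 7.27 in EBs. Its values were tight in each group, and it fell by 2.22 on the log2 scale (SE 0.08), or 4.66-fold (adjusted p = 2.1e-07), while its ligand Efna1 was higher. Ephb4 and Ephb3, partners of the ephrins of type B, rose by 0.94 ± 0.14 (SE) and 0.77 ± 0.09 (SE). Epha1 read 5.85, 6.05, 5.93 and 5.74 in ESCs and 5.31, 5.60, 5.16, 5.47 and 4.49 in EBs, and it was called lower by a narrow margin, with a 1.61-fold fall (adjusted p = 0.0419). In 6 of the 9 fits that left out 1 array, namely ESC 2, 6, 8 or 10 or EB 1 or 5, Epha1 was no longer called, and its adjusted p over the 9 fits ran from 0.0117 to 0.103.

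The Eph receptors that were not called included Epha5 and Epha3, which are best known from axon mapping in the brain. Epha5 read 5.50, 5.24, 5.24 and 5.30 in ESCs and 5.27, 5.24, 5.10, 5.24 and 5.24 in EBs. Epha3 read 4.98, 4.99, 4.98 and 5.13 in ESCs and 4.85, 4.94, 4.95, 4.98 and 5.0 in EBs. On these probe sets the groups overlapped and the whole spread over 9 arrays was under 0.5. For Epha3, 2 lower-level probe sets differed by 0.65 (adjusted p = 0.174) and 1.05 (adjusted p = 0.0827) with a spread of over 2 units, led by EB array 7 in the former and by EB arrays 7 and 9 in the latter, and neither was called. Epha6, Epha8, Ephb1 and Ephb6, the last a receptor without kinase activity, were below a level of 4 in the mean of each group. Ephb1 was 4.56 on EB array 1 and between 3.21 and 3.30 on the other EB arrays, and without that array it was called at a difference of 0.16 (adjusted p = 0.00142).

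Slit2 and its receptor Robo1 rose together, and so did Ntn1 with Unc5b and Unc5c. Slit2, a secreted repellent of axons and migrating cells, read 4.66, 3.22, 6.11 and 5.13 in ESCs and 9.47, 9.60, 9.57, 9.58 and 9.67 in EBs. As with Nrp1, EB values were tight and ESC values spread, and the rise was 4.80 ± 0.47 (SE), or 27.8-fold (adjusted p = 6.9e-05). It was 5.61 within labels 1 to 6 and 4.0 within 7 to 10. The mean of this probe set on ESC arrays 2 and 6, 3.94, was near the bottom of the scale, where the size of a fold is uncertain. Another probe set of Slit2 had ESC values between 4.03 and 4.28 and rose by 1.36 ± 0.15 (SE), or 2.56-fold (adjusted p = 1.7e-04), and the mean over its probe sets rose by 2.04. Robo1 read 5.57, 5.80, 5.79 and 5.84 in ESCs and 7.61, 7.69, 7.38, 8.06 and 8.21 in EBs, a 4.11-fold rise between groups that did not overlap (adjusted p = 2.0e-05). Slit3 rose less, by 0.76 ± 0.11 (SE). Its ESC values, 6.05 to 6.07, were nearly equal, as GCRMA can leave probe sets of low signal, so size and SE are uncertain. Slit1 read 3.84, 3.85, 3.83 and 3.86 in ESCs and 3.80, 3.81, 3.84, 3.91 and 3.94 in EBs, near the bottom of the scale throughout. Robo2 read 6.36, 6.35, 6.36 and 6.63 in ESCs and 6.17, 6.36, 6.31, 6.17 and 6.38 in EBs, with overlap and a difference of -0.14 (95% interval -0.32 to 0.03). Robo4, the Robo receptor of endothelium, was also not called, at 2.60 in ESCs and 2.86 in EBs.

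Ntn1, the secreted netrin, read 6.32, 5.62, 7.89 and 7.75 in ESCs and 9.08, 9.03, 9.05, 9.33 and 9.34 in EBs. The ESC arrays again fell into a lower and an upper pair, below all EB arrays. The rise was 2.27 ± 0.44 (SE), or 4.83-fold (adjusted p = 0.00443), and it was 3.08 within labels 1 to 6 and 1.52 within 7 to 10. Unc5c, a receptor for repulsion by netrin, read 5.90, 5.40, 5.39 and 5.51 in ESCs and 7.83, 7.83, 7.69, 8.04 and 8.04 in EBs. It showed tight values in both groups and a 5.04-fold rise (adjusted p = 1.7e-06). Unc5b, known from vessel sprouts, rose by 1.74 ± 0.18 (SE), from 7.39 ± 0.42 (SD, n = 4) to 9.13 ± 0.15 (SD, n = 5), by 1.98 within labels 1 to 6 and 1.55 within 7 to 10. Of the other netrin receptors, Neo1 rose by 0.37 ± 0.09 (SE) and Dcc, at 6.09 and 5.93, was not called.

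On representing probe sets, Nrp1, Slit2 and Ntn1 were the 3 guidance genes at least 1 log2 unit higher on the ESC arrays 8 and 10 than on 2 and 6. Their means were 6.96 against 4.60, 5.62 against 3.94 and 7.82 against 5.97. Of all 18193 genes, 97 (0.533%) showed such a gap. It was also seen in the mesenchyme markers Col3a1, with 3.12, 3.65, 6.28 and 5.51 in ESCs, Col1a1, with 6.98, 6.78, 9.03 and 9.02, and Prrx1, with 4.74, 4.37, 5.99 and 5.92. Twist1 and Pdgfra did not show it. The gap was not confined to that list. It was also seen in Actc1 of the cardiac muscle list, with 6.14, 6.91, 8.42 and 8.15 in ESCs. Kdr of the endothelial list, with 3.80, 4.41, 5.33 and 5.21, and Pax6 of the neural progenitor list, with 5.39, 5.51, 5.98 and 7.02, had it as well. The other markers of those lists did not reach a gap of 1 unit. No guidance gene differed by 1 unit between the EB arrays 7 and 9 and the EB arrays 1, 3 and 5. Of all genes, 0.275% were at least 1 unit higher and 0.22% at least 1 unit lower on EB arrays 7 and 9, so 0 of 59 is near these shares. The labels do not say what the array numbers stand for. The part of RNA of other cell types, mesenchyme-like or not, in Nrp1, Slit2 and Ntn1 was not tested.

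**Figure D3:**
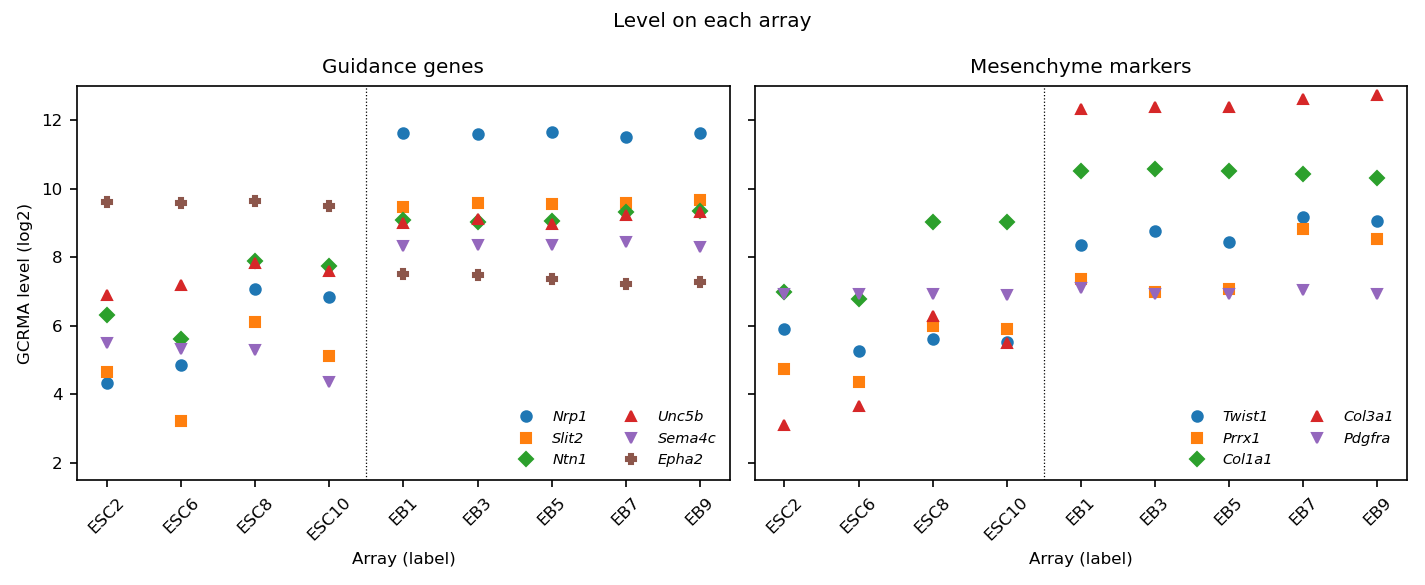
GCRMA level (log2, vertical axis) on each array (horizontal axis, ESC arrays left of the dotted line) for 6 guidance genes in the left panel and the 5 mesenchyme markers in the right panel. Nrp1, Slit2 and Ntn1 are higher on the ESC arrays 8 and 10 than on 2 and 6, as are Col3a1, Col1a1 and Prrx1, while all 5 EB arrays stay above them.

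The probe sets of a gene did not always give the same difference. Several probe sets were present for 42 of the 59 genes, which adds 79 probe sets to those that represent a gene, and 51 of these were below a level of 4 in both groups. Of the 79, 16 were called higher and 3 lower, and none was called against its gene's call. The share called among all probe sets was not computed. The folds above are those of the representing probe sets, and the differences of other probe sets were smaller in several genes, as in Efnb2 (1.69 and 0.76), Unc5c (0.43) and Sema6d (-0.03, not called). Those of Nrp2 went both ways, with 0.60 (not called) on one and 2.17 (called) on another, beside 1.88 on the representing probe set. In Epha7, a receptor of ephrins of type A, the smaller change was on the representing probe set. This probe set read 7.04, 6.99, 7.22 and 7.05 in ESCs and 7.48, 7.20, 7.49, 7.21 and 7.60 in EBs, a difference of 0.32 (adjusted p = 0.0461) and the only called rise with overlapping groups. It was not called in 6 of the 9 fits without 1 array, those without ESC 2, 6 or 10 or EB 1, 5 or 9 (adjusted p from 0.0291 to 0.112 over the 9 fits). Another of its probe sets read 5.47, 5.43, 5.18 and 5.67 in ESCs and 7.53, 7.58, 7.27, 7.94 and 7.91 in EBs, a 4.62-fold rise without overlap (adjusted p = 8.2e-06).

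Plxnb1 and Sema5a, a semaphorin with thrombospondin repeats, were not called on their representing probe sets but had another that was called. That of Plxnb1 rose by 1.03 ± 0.15 (SE) from 5.21 to 6.25, and that of Sema5a rose by 0.78 ± 0.08 (SE) from 4.14 to 4.93. With any probe set of a gene allowed to count, 29 guidance genes (49.2%) were called higher, against 17.5% of all genes, and 5 were called lower, against 16.7%. Of the 27 genes not called, 17 varied by less than 0.5 over all 9 arrays, and 8 of the 59 were below a level of 4 in both groups. For such probe sets a change in RNA could lie under what the array registers.

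**Figure D4:**
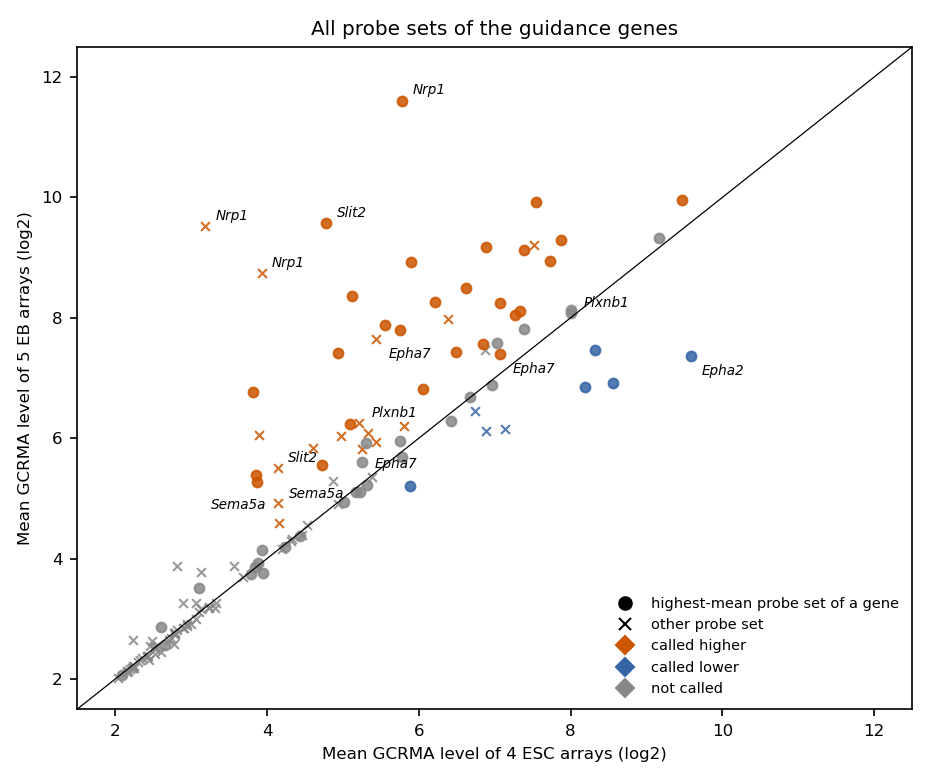
Mean level (log2) of 4 ESC arrays (horizontal axis) and 5 EB arrays (vertical axis) for all 138 probe sets of the guidance genes, with circles for the probe set that represents a gene, crosses for the others, colour for the call and a line of equal level. Probe sets of Epha7, Plxnb1 and Sema5a lie both near the line and above it, and those of Nrp1 lie far above it except for 1 close to the line.

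Other genes of these pathways were read from lists set by name. Of 25 further ligands, receptors and co-receptors with a probe set, 6 (24%) rose and none fell, against 15.7% and 14.7% of all genes. The largest rises were those of Flrt3, an adhesion protein that binds Unc5 receptors, at 3.68 ± 0.05 (SE), its relative Flrt2 at 1.80 ± 0.25 (SE) and Nrcam, a neural adhesion molecule of semaphorin receptor complexes, at 1.63 ± 0.21 (SE). The other semaphorin, Eph, Robo, Unc5 and netrin genes of that list, Sema3g, Epha10, Robo3, Unc5a, Unc5d, Ntn3, Ntn4 and Ntn5, were not called. Of 39 genes with a probe set that act inside the cell or cut the ligands and receptors, 15 (38.5%) rose and 2 (5.13%) fell, against the same shares of all genes. Dpysl2 and Dpysl3, collapsin response mediators downstream of Sema3a, rose by 2.28 ± 0.08 (SE) and 2.24 ± 0.24 (SE), and Adam10, a protease that sheds ephrins, rose by 2.28 ± 0.11 (SE). Crmp1, of the same family as Dpysl2, fell by 0.89, and Enah, an actin regulator, fell by 0.80. The median difference was -0.02 for the first list and 0.16 for the second.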

How the data were processed

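Total RNA of 4 E14 ESC and 5 EB samples had been hybridized to 1-colour Affymetrix mouse arrays. The authors deposited linear GCRMA intensities, that is, intensities corrected for background with probe sequence, quantile normalized and summarized per probe set. GCRMA leaves many probe sets of low signal at nearly equal values, so spread near the bottom of the scale understates error. Arrays have no read depth, and the number of arrays limits the precision.

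Here the log2 of the deposited intensities was fitted with limma 3.58.1 (R 4.3.3, lmFit and eBayes with trend and robust steps), EB against ESC, without covariates, after leaving out 64 control probe sets. P-values were adjusted by Benjamini-Hochberg over 45037 probe sets. Of these, 34945 were paired with 1 gene symbol in the platform annotation, and 932 with several, which named no gene. The methods of the study used only plain probe sets, which is run here as an alternative. No columns of samples outside the series were present (0). Values on each array are given for the 12 largest rises and 12 largest falls among calls without overlap, for genes with opposing probe sets (none occurred) and for the 2 highest genes not called per family. Epha1, Epha7, Sema4g and Ephb1 were also named because their calls changed, and Nrp1, Sema3e, Sema3f, Slit2, Epha3, Epha4, Efnb2, Unc5c, Nrp2, Sema6d, Plxnb1 and Sema5a probe sets after their values were seen, as were Neo1 and Dcc. Of the other pathway genes, the 3 largest called rises and falls of each list are named. Alternatives were other normalizations, limma options, probe set rules, level and fold filters, the array label sets and leaving out each array. The guidance genes and all lists were chosen with earlier results of these data known. Promoters come from RefSeq (GRCm38.p6). The procedure was tested on simulated data.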

Additional observations from a re-analysis of the deposited data

Results flagged for a closer look

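In 118 groups of arrays (59 genes in ESCs and in EBs), Dixon's test at the 95% level singled out 1 array in 18 cases. Chance alone gives about 1 group in 20 where values spread normally. That may not hold for nearly equal GCRMA values, so the 18 cases are not read against it. Several gaps were tiny, as in Sema7a (0.01), Sema3b (0.03 and 0.05), Ephb6 (0.04), Sema6b (0.06) and Plxnb1 (0.08). The single gene among the 18 cases that was called is Sema4c, at 4.36 on ESC array 10 against 5.31 to 5.50 on the other ESC arrays. The widest gap was that of Ephb1, at 4.56 on EB array 1 against 3.21 to 3.30 on the other EB arrays.

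ESC array 10 stood apart above the others in Sema3b (4.26), Sema4a (5.36), Sema4f (4.31), Plxnb3 (4.56), Epha3 (5.13) and Robo2 (6.63), by 0.03 to 0.47. ESC array 6 was the highest in Sema7a (3.89), and ESC array 8 the lowest in Plxna3 (3.66) and Plxnb1 (7.95). EB array 1 was the lowest in Sema3b (4.16), Sema4f (3.54), Sema6b (5.63) and Ephb6 (2.04). EB array 7 was the highest in Sema6a (6.19) and Plxna1 (8.29), and EB array 5 the lowest in Epha5 (5.10). None of the genes in this paragraph was called.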

How the results depend on the processing

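The count of guidance genes called higher stayed within 1.5 times its value of 27 under all 20 alternatives and with any probe set counted, and leaving out each array gave 26 to 28. The count called lower, 5, became 8 with quantile normalization, 3 with a fold of at least 2 and 3 on array labels 7 to 10 alone, and lay between 4 and 6 without 1 array. The median difference of ligands moved from 0.55 to 0.30 and that of receptors from 0.23 to 0.41 with the mean over probe sets, and the ligand median was 0.41 on labels 7 to 10 alone. Without 1 array these medians ran from 0.49 to 0.64 and from 0.15 to 0.26. Direction turned in 2 genes that were called before or after the change, Sema3f with plain probe sets (-0.01) and Sema5a with the mean over probe sets (0.20, adjusted p = 0.0285), and the cause of these changes was not tested except that each setting reads other probe sets. A further 9 genes changed sign without being called in either case, with Epha3 moving from -0.07 to 0.65 with plain probe sets and to 0.39 with the mean over probe sets. Of the 32 calls, 30 were kept in every fit without 1 array, with Epha1 and Epha7 as the exceptions, and 21 under all alternatives. The median of all genes was -0.04 as deposited, -0.02 after centring and -0.01 after quantile normalization. No paired analysis was run, because the groups share no replicate numbers and the labels do not say whether any arrays form pairs. The option to count any probe set of a gene was added after seeing the data.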
